A study of Mus musculus with 2 samples.

Results

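The factors described are 9 genes that drive and mark the step from cortical stem cell to neuron, Eomes, Neurog1, Neurog2, Neurod1, Neurod4, Nhlh1, Insm1, Hes6 and Gadd45g. They were found by symbol in the table of gene counts, where each of the 9 has 1 line among 16103 genes. The study holds 2 RNA-seq libraries of GFP-positive cells sorted at embryonic day 15 from the cortex of ICR mice, an outbred stock. The TRPM2-KD library comes from embryos that received a knockdown plasmid against Trpm2, a calcium-permeable cation channel opened by warmth, by in utero electroporation at embryonic day 13. The Control library comes from embryos that received a control plasmid on the same day. Both libraries carry the word warm in their labels, while the sources used here give neither the temperature nor its duration nor the number of embryos pooled. The column header of the knockdown library names 1 construct, TRPM2-sh1, so an effect of that construct cannot be told apart from one of lower Trpm2.

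In the embryonic cortex, radial glia divide at the ventricle and give rise to intermediate progenitors, which leave the ventricular surface, divide again and produce excitatory neurons. Proneural factors of the basic helix-loop-helix (bHLH) class, above all Neurog2, start this step by pairing with E proteins and binding E-box sequences in DNA. They are held back by Notch signalling through Hes repressors and by Id proteins, and they switch on a cascade in which Eomes marks intermediate progenitors and the NeuroD and Nhlh factors act in cells that are becoming neurons.

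With 1 library per group no spread between replicates exists, and a difference between the libraries cannot be told apart from one between the conditions. The libraries held 20791236 counted reads in TRPM2-KD and 26209192 in Control. Trpm2 itself had 155 reads in TRPM2-KD and 241 in Control, a ratio of 0.811 with a counting interval from 0.658 to 0.996. The interval of the targeted gene thus ends just under 1. Each ratio is the RPKM (the read count scaled to the length of the gene model and to the size of the library) in TRPM2-KD over that in Control. Trpm2 stood at 0.604 RPKM in TRPM2-KD and 0.745 in Control. Genes of like depth had 386 to 641 reads over both libraries and at least 1 RPKM on average. Their ratios ran from 0.701 at the 10th percentile to 1.48 at the 90th, so the lower value of Trpm2 lies within their spread. Each bracketed range is an exact 95% interval of the read counts, which covers counting error only, and reads copied by PCR are not independent molecules. Young neuron markers summed to 1662 RPKM in TRPM2-KD and 1821 in Control over 11 genes, and radial glia markers to 692 and 635 RPKM over 12 genes, so transcripts of neurons were abundant in cells labelled as neural stem cells.

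The summed reads of the 9 factors did not differ between the libraries beyond counting error, although single members went both ways. Their reads summed to 15936 in TRPM2-KD, or 0.0766% of that library, and to 20007 in Control, or 0.0763%. The ratio of these sums was 1.00 (0.983 to 1.03). The median ratio of the 9 genes was 0.996, and that of all 13988 genes with a mean of at least 1 RPKM over both libraries, a filter that all 9 members pass, was 0.997. Within this flat total the members spread from 0.660 for Neurog1 to 1.46 for Nhlh1, with 4 above 1 and 5 below.

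**Figure D1:**
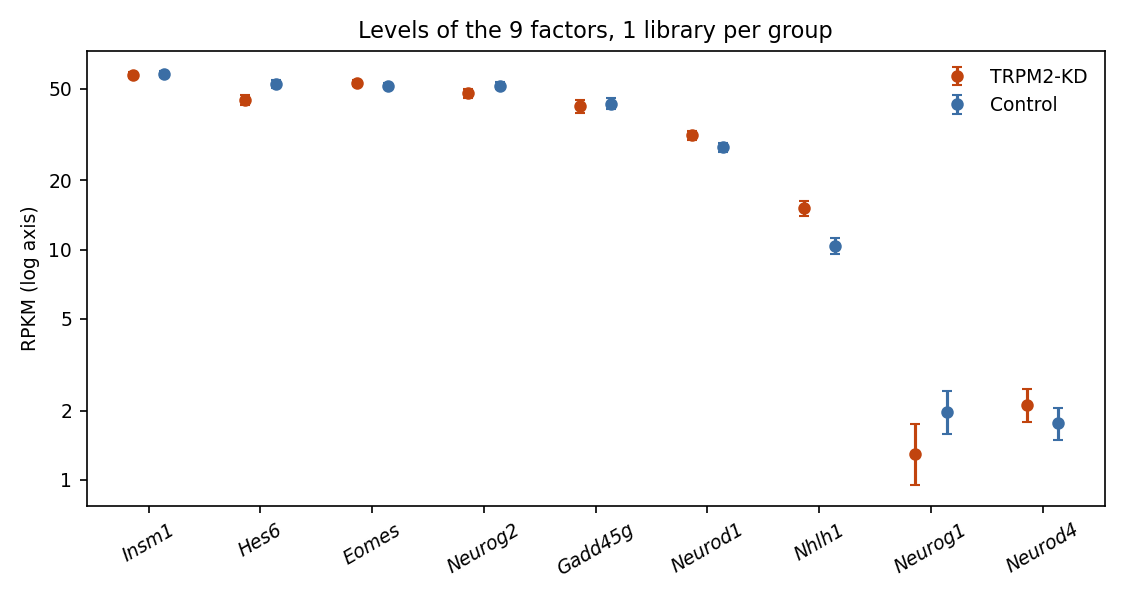
RPKM of each of the 9 factors (vertical log axis) in the TRPM2-KD library and the Control library, ordered by level in Control, with exact 95% Poisson intervals of the counts. The 5 most abundant factors lie between 41.9 and 57.7 RPKM in both libraries, Neurog1 and Neurod4 lie near 2 RPKM or below, and the intervals of Nhlh1 in the 2 libraries lie apart.

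Most of the factors were abundant transcripts. In both libraries 6 of the 9 were above 20 RPKM, and the most abundant was Insm1, a zinc finger repressor that promotes the formation of intermediate progenitors. In TRPM2-KD the order by level was Insm1, Eomes, Neurog2, Hes6, Gadd45g, Neurod1, Nhlh1, Neurod4 and Neurog1. In Control it was Insm1, Hes6, Eomes, Neurog2, Gadd45g, Neurod1, Nhlh1, Neurog1 and Neurod4. The places that differed were that of Hes6, and with it those of Eomes and Neurog2, and those of the 2 rarest factors. Neighbours whose counting intervals overlap, and whose order is therefore not settled by these reads, were Neurog2 and Hes6, and Hes6 and Gadd45g, in TRPM2-KD. In Control they were Hes6 and Eomes, Eomes and Neurog2, and Neurog1 and Neurod4. The Eomes gene lay above 92.8% of the 13988 genes by mean RPKM, whereas Neurod4 lay above 11.1% and Neurog1 above 8.16%.

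Nhlh1 was the factor that differed most clearly, and it was higher in TRPM2-KD. Nhlh1 (ENSMUSG00000051251.3) encodes a bHLH factor that appears in cells leaving the cell cycle to become neurons. It had 774 reads and 15.1 RPKM in TRPM2-KD, against 670 reads and 10.4 RPKM in Control. The ratio was 1.46 (1.31 to 1.62), or 0.54 on the log2 scale. Among the 13988 genes 6.95% had a higher ratio. Among the 1398 genes with a like number of reads, 997 to 1449 over both libraries, 10th and 90th percentiles of the ratio were 0.791 and 1.28, and 2.93% of them had a higher ratio than Nhlh1. No other member lay above the 90th percentile of genes of like depth.

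Neurog1 lay at the other end, but on few reads. It encodes a proneural bHLH factor closely related to Neurog2. Neurog1 (ENSMUSG00000048904.4) had 45 reads and 1.30 RPKM in TRPM2-KD, against 86 reads and 1.98 RPKM in Control. The ratio was 0.660 (0.449 to 0.957). Genes of like depth, with 21 to 191 reads, ran from a ratio of 0.447 at the 10th percentile to 2.52 at the 90th, and 23.0% of them had a lower ratio than Neurog1. At this depth the lower value of Neurog1 lies within the spread of other thinly covered genes. With 1 RPKM added to both values the Neurog1 ratio was 0.774, and with 0.1 RPKM added it was 0.676, which is no longer past 1.5-fold.

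The promoters of these 2 extremes, the highest and the lowest ratio, are shown from RefSeq on build GRCm38.p6, a later build than the mm9 build in the submitters' processing notes. Each is the 250 bases before the start of the gene, 5′ to 3′ on the gene's strand, and capitals mark E-boxes, the letters CANNTG, which read the same on both strands. The Nhlh1 window is chr1:172057597-172057846 and the Neurog1 window is chr13:56252181-56252430, both on the minus strand.
Nhlh1: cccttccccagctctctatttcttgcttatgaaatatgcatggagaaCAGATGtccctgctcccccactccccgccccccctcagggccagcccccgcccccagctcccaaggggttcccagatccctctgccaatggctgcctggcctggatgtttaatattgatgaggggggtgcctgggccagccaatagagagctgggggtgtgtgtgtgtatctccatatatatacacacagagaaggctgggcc
Neurog1: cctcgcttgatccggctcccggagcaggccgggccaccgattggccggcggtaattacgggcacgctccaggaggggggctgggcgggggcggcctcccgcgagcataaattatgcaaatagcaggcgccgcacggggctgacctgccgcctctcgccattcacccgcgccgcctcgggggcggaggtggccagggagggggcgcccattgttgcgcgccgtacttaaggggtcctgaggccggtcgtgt
The Nhlh1 window held 1 E-box, CAGATG, whose first base lies 203 bases before the start, and the Neurog1 window held none. An E-box occurs in 66.2% of 32851 promoter windows of this length. Of the 9 members 8 have such a window in the table used, Insm1 being without, and Hes6 and Neurod4 have 2 each. At least 1 E-box was found for 4 of these 8 members. The Neurod1 window held 1, CATATG, the Gadd45g window 3, and the Hes6 windows 1 and 3. The letters CACNAG of the N-box, searched on both strands, were found for 4 members (Eomes, Neurod4, Hes6 and Gadd45g) and in 36.7% of all windows. These are matches of letters, and no binding was measured.

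Of the early proneural genes, Neurog2 was slightly lower in TRPM2-KD. Neurog2 (ENSMUSG00000027967.7), the main proneural factor of the dorsal cortex, had 2211 reads and 47.7 RPKM in TRPM2-KD, against 3003 reads and 51.4 RPKM in Control. The ratio was 0.928 (0.878 to 0.981). Of the 1399 genes of like depth 25.7% had a lower ratio, so a shift of this size was common among well-covered genes.

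Hes6, a member of the Hes family known to oppose Hes1 and to promote neuronal differentiation, was lower by a larger margin. Hes6 (ENSMUSG00000067071.2) had 1682 reads and 44.7 RPKM in TRPM2-KD, against 2486 reads and 52.4 RPKM in Control. The ratio was 0.853 (0.801 to 0.908), and the difference of -7.71 RPKM was the largest in level among the 9 members. Of genes of like depth 9.29% had a lower ratio. Hes6 thus lay at the edge of the spread of such genes, whose 10th percentile was 0.859.

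No difference was detectable for Eomes, Insm1 and Gadd45g. Eomes (ENSMUSG00000032446.8), the T-box factor also called Tbr2, had 4572 reads and 52.9 RPKM in TRPM2-KD, against 5610 reads and 51.5 RPKM in Control, a ratio of 1.03 (0.988 to 1.07). Insm1 (ENSMUSG00000068154.4) had 3703 reads and 57.5 RPKM in TRPM2-KD, against 4686 reads and 57.7 RPKM in Control, a ratio of 0.996 (0.954 to 1.04). Gadd45g (ENSMUSG00000021453.2), a stress-response protein transcribed in newly committed neuronal precursors, had 1022 reads and 41.9 RPKM in TRPM2-KD, against 1324 reads and 43.0 RPKM in Control, a ratio of 0.973 (0.896 to 1.06). All 3 intervals span 1. Eomes and Insm1 had the most reads of the 9 and the narrowest intervals.

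Neurod1 and Neurod4, the NeuroD factors among the members, had ratios above 1, and the interval of Neurod1 lay above 1. Neurod1 (ENSMUSG00000034701.9), a bHLH factor of late intermediate progenitors and new neurons, had 1780 reads and 31.3 RPKM in TRPM2-KD, against 1988 reads and 27.8 RPKM in Control. The ratio was 1.13 (1.06 to 1.20), and 16.0% of genes of like depth had a higher one. Neurod4 (ENSMUSG00000048015.3), a bHLH factor that acts with other proneural genes, had 147 reads and 2.11 RPKM in TRPM2-KD, against 154 reads and 1.76 RPKM in Control, a ratio of 1.20 (0.953 to 1.52). For Neurod4 the interval spans 1, and a difference was not detectable with these reads. In the GENCODE M21 annotation Neurod1 overlaps Cerkl on its own strand and Gm26755 on the other. Gm26755 had 185 reads in TRPM2-KD and 128 in Control, a ratio of 1.82 (1.45 to 2.30). The sources used here do not say whether counting used strand, so the Neurod1 reads and those of Gm26755 cannot be fully told apart.

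**Figure D2:**
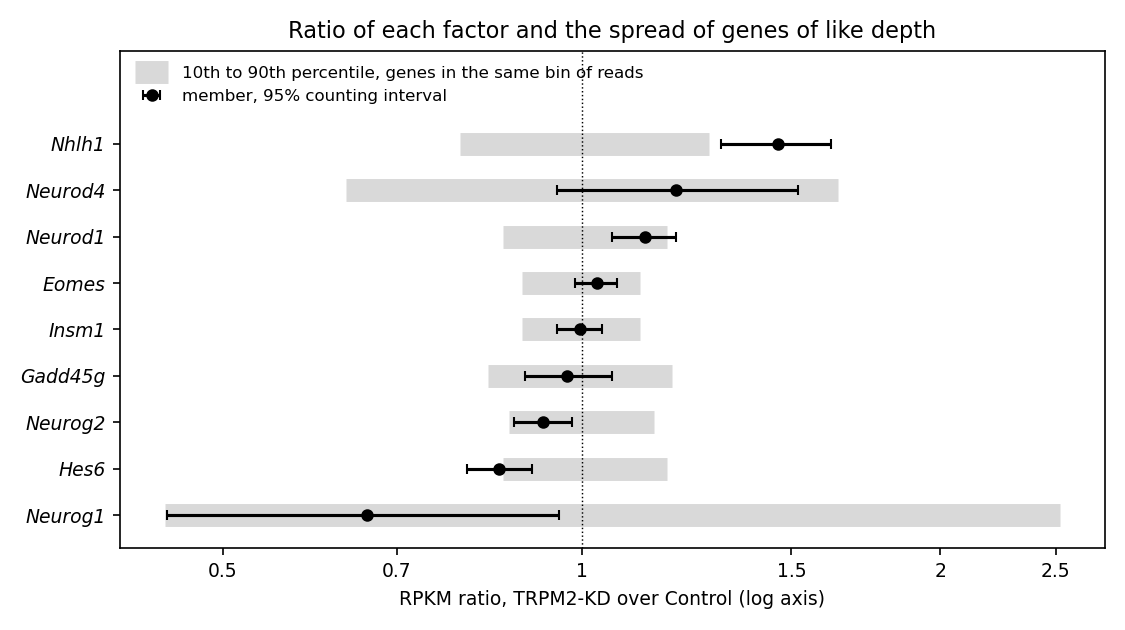
Ratio of RPKM, TRPM2-KD over Control (horizontal log axis), for each factor as a point with its exact 95% counting interval, over a grey bar from the 10th to the 90th percentile of genes in the same of 10 equal bins by number of reads. Nhlh1 at 1.46 lies beyond its bar, Hes6 at 0.853 lies just past the lower end of its bar, and Neurog1 at 0.660 lies inside a bar that runs from 0.447 to 2.52.

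Set against all genes, the number of members that differed was not large. At least 25% higher in TRPM2-KD was 1 of 9 members (Nhlh1), as were 13.9% of all genes. At least 20% lower was also 1 of 9 (Neurog1), as were 12.8% of all genes. Past 1.5-fold lower the count was again 1 of 9, against 5.03% of genes, and past 1.5-fold higher it was 0 of 9, against 6.23%. No member reached 2-fold, which 2.32% of genes did upward and 1.75% downward. Counting intervals lay above 1 for 2 of 9 members (Neurod1 and Nhlh1) and below 1 for 3 of 9 (Neurog1, Neurog2 and Hes6), against 28.0% and 28.4% of all genes. The quartiles of the members' ratios were 0.928 and 1.13, and those of all genes 0.888 and 1.13. The authors' deposited log2 fold changes of the 9 members ran from -0.60 for Neurog1 to 0.54 for Nhlh1. Their deposited p-values are not given here. With 1 library per group these hold no measured spread between replicates, and the tool that gave them is not named.

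**Figure D3:**
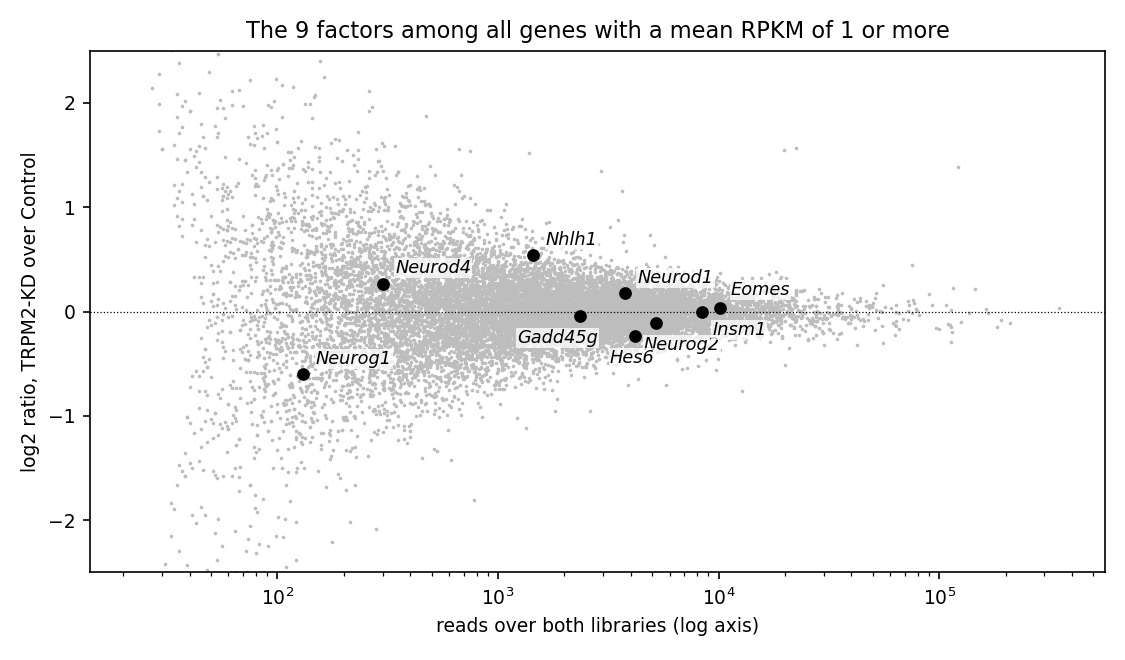
Log2 ratio of TRPM2-KD over Control against the number of reads over both libraries (log axis) for genes with a mean of at least 1 RPKM (grey) and the 9 factors (black). There are 13921 genes drawn, 47 lie beyond 2.5 on the vertical axis and 20 had no reads in 1 library. The grey cloud narrows as reads increase, Nhlh1 sits on its upper edge, and Eomes and Insm1 sit at its centre.

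Ratios between members within a library do not depend on how the libraries are scaled. Measured against Eomes per length, Nhlh1 stood at 0.285 of the Eomes level in TRPM2-KD and 0.201 in Control, a relative change of 1.42 (1.27 to 1.59). Neurod1 stood at 0.593 of Eomes in TRPM2-KD and 0.540 in Control, a change of 1.10 (1.02 to 1.18). Neurog2 stood at 0.903 of Eomes in TRPM2-KD and 0.999 in Control, a change of 0.903 (0.844 to 0.967). Nhlh1 and Neurod1 were thus higher, and Neurog2 lower, relative to Eomes in TRPM2-KD. Hes6 was also lower, at 0.845 of Eomes in TRPM2-KD and 1.02 in Control, a change of 0.830 (0.771 to 0.894). Neurog1, on few reads, stood at 0.0247 of Eomes in TRPM2-KD and 0.0384 in Control, a change of 0.642 (0.436 to 0.933). For Insm1, Gadd45g and Neurod4 the interval of this change spans 1. For Nhlh1 over Neurog2 the level ratio was 0.316 in TRPM2-KD and 0.202 in Control, a change of 1.57 (1.39 to 1.77). For Neurod1 over Neurog2 the level ratio was 0.657 in TRPM2-KD and 0.540 in Control, a change of 1.22 (1.12 to 1.32). Eomes as the base and these pairs were chosen after the values were seen.

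The ratio of a gene also went with its length. Split by length into 10 equal bins, genes of the shortest bin, up to 1092 bases of gene model, had a median log2 ratio of -0.07, and those of the longest, from 8089 bases, one of 0.09. The gene models of the members run from 1174 bases for Gadd45g to 4160 for Eomes, and the bins that hold them had medians from -0.07 to -0.03. In the bin that holds Nhlh1 the median was -0.04, against 0.54 for Nhlh1.

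The partners and opponents of the proneural factors went both ways. The 3 E protein genes, whose products pair with proneural factors, were near 1, with Tcf3 at a ratio of 0.924 (0.884 to 0.966), Tcf4 at 0.941 (0.926 to 0.955) and Tcf12 at 1.08 (1.03 to 1.12). Of the 4 Id genes, whose products keep E proteins from pairing, 2 were above 1 and 2 below. Id1 had 161 reads and 6.67 RPKM in TRPM2-KD, against 327 reads and 10.7 RPKM in Control, a ratio of 0.621 (0.511 to 0.752). Id2, the most abundant Id gene, was at 0.860 (0.814 to 0.909), while Id3 at 1.01 and Id4 at 1.05 had intervals that span 1. Of the 4 Notch-driven repressor genes, Hey1 at 1.23 (1.08 to 1.40) and Hey2 at 1.46 (1.08 to 1.99) were higher, while the intervals of Hes5 at 0.936 and Hes1 at 0.942 span 1. Hey2 rests on 95 reads in TRPM2-KD and 82 in Control. Both Hey genes lay below the 90th percentile of genes of like depth, 1.36 in the bin of Hey1 and 2.52 in that of Hey2. Id1 and Id2, in contrast, lay below the 10th percentile of genes of like depth. It was 0.701 in the bin of Id1 and 0.869 in that of Id2.

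Genes that act downstream of proneural factors had a median ratio close to 1, with Sox11 above the spread of genes of like depth. Of 8 such genes 3 were above 1 and 5 below, the median ratio was 0.994 and none was 25% higher or 20% lower. Sox11, a factor of early neuronal differentiation, was at 1.17 (1.14 to 1.20), while its relative Sox4 was at 0.923 (0.912 to 0.934). In the bin that holds Sox11, genes with 7323 or more reads over both libraries, the 90th percentile of the ratio was 1.12. The Notch ligand gene Dll1, a direct target of neurogenins, was at 1.09 (1.02 to 1.17). Rnd2, a small GTPase that Neurog2 induces for migration, was at 0.921 (0.882 to 0.961). Of 7 other neurogenic bHLH genes that pass the filter, 5 lay below 1 and 2 above, and the median was 0.930. Nhlh2, the close relative of Nhlh1, had 827 reads and 11.8 RPKM in TRPM2-KD, against 875 reads and 9.94 RPKM in Control. Its ratio of 1.19 (1.08 to 1.31) had the direction of Nhlh1, but lay within the spread of genes of like depth, whose 90th percentile was 1.24. Neurod2 at 0.907 (0.884 to 0.931) and Neurod6 at 0.913 (0.890 to 0.937), bHLH factors of maturing excitatory neurons, were lower, unlike Neurod1. Olig1, a factor of the oligodendrocyte lineage, was at 1.60 (1.37 to 1.87). Among paralogs of members, Tbr1, the T-box relative of Eomes in deep-layer neurons, was at 0.861 (0.826 to 0.899), Gadd45a at 0.776 (0.636 to 0.944) and Gadd45b at 1.10 (0.879 to 1.38).

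Other genes known from intermediate progenitors were split evenly by direction, but not by size. Of 12 genes 6 were above 1 and 6 below, with 4 counting intervals on each side and a median ratio of 1.01. Tac2, a tachykinin precursor gene, had 71 reads in TRPM2-KD and 29 in Control, a ratio of 3.09 (1.98 to 4.93). Abcd2, a peroxisomal transporter gene, was at 1.53 (1.37 to 1.70) and Rnd3, a small GTPase of migrating cells, at 1.13 (1.07 to 1.19). Sstr2, a somatostatin receptor gene, was lower at 0.850 (0.779 to 0.929).

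**Figure D4:**
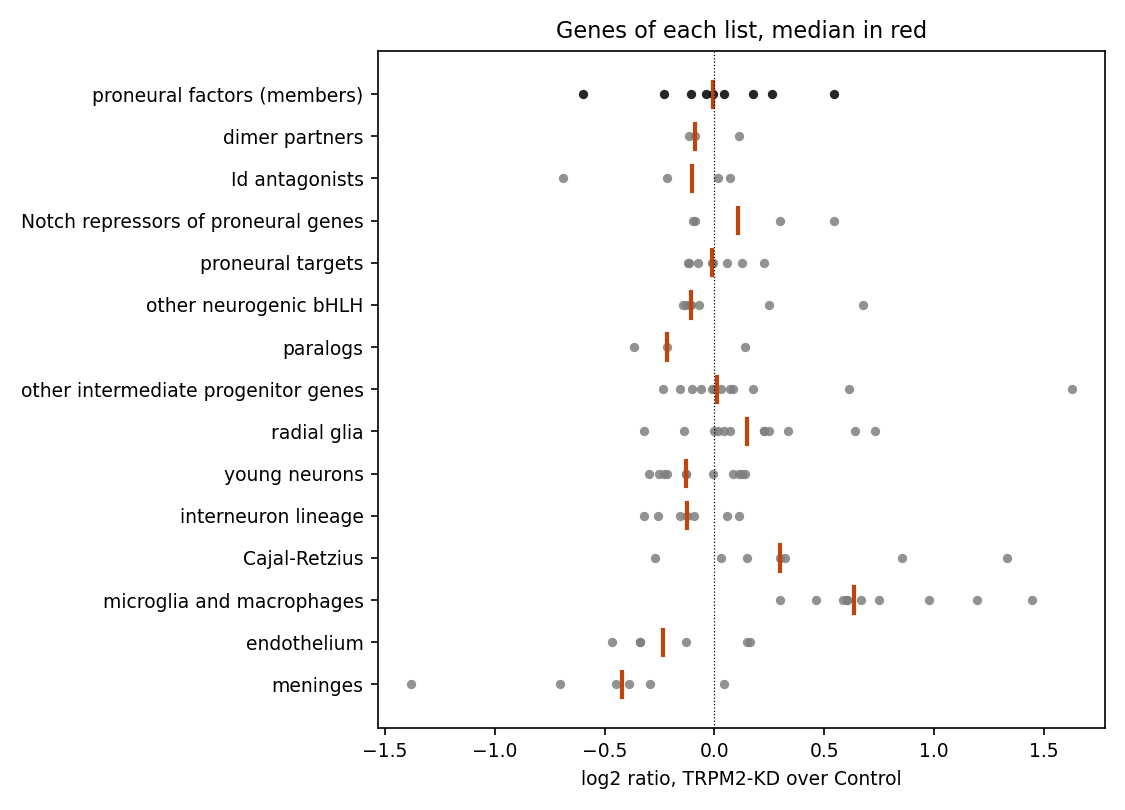
Log2 ratio of TRPM2-KD over Control for each gene with a mean of at least 1 RPKM in the 9 factors and in each list, with the median as a red bar. The 9 factors and the other intermediate progenitor genes centre on 0, the Cajal-Retzius and microglia lists lie mostly to the right, and the meninges list lies mostly to the left.

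Markers of other cell types differed between the same libraries, and fewer cells of a type cannot be told apart from less RNA per cell in bulk RNA. Radial glia markers were above 1 for 10 of 12 genes (median ratio 1.11), with 7 counting intervals above 1 and 2 below. Young neuron markers were below 1 for 7 of 11 (median 0.915), with 6 counting intervals below 1 and 4 above. Markers of Cajal-Retzius neurons, early cells of the cortical surface, summed to 51.7 RPKM in TRPM2-KD and 43.1 in Control over 8 genes, with 6 of the 7 that pass the filter above 1. Microglia and macrophage markers summed to 235 RPKM in TRPM2-KD and 149 in Control, with 10 of 10 above 1. Meningeal markers summed to 61.9 RPKM in TRPM2-KD and 79.9 in Control, with 5 of 6 below 1, and endothelial markers to 96.1 and 114 RPKM, with 4 of 6 below 1. Interneuron lineage markers summed to 185 RPKM in TRPM2-KD and 202 in Control, with 5 of 7 below 1. No marker of these lists was at 0 reads in either library. The part of these cell types in the higher Nhlh1 and Neurod1 or the lower Hes6 was not tested.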

How the data were processed

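RNA-seq was done on 1 TRPM2-KD and 1 Control library. The authors deposited 1 table with raw read counts per gene and RPKM values for each library, per the file headers. It also holds the authors' log2 fold change, p-value and adjusted p-value, per the file headers. The submitters' processing notes name HTSeq 0.6.0, TopHat2 2.0.12, Bowtie2 2.2.3 and build mm9, without their roles. For the tool of that comparison, the annotation and the use of strand, the entry is: not given in the sources used here.

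Ratios were computed from the deposited counts scaled by library total, which equals the ratio of RPKM, and exact conditional binomial (Clopper-Pearson) 95% intervals with scipy 1.17.1. Gene lengths were computed from counts and RPKM. Genes averaging at least 1 RPKM were compared, and no test was made, since there is 1 library per group. Genes in 10 equal bins by reads or by length give the background spread. The interval code was tested on simulated counts that held counting error only, which checks the code and not the spread between libraries. Alternatives used edgeR 4.0.16 (TMM, upper quartile) and DESeq2 1.42.0 (size factors) for scaling only. Members and lists were chosen with earlier results of these data known. All 9 members are named, with up to 4 genes of each pathway list having the largest absolute log2 ratio above the filter. Each of the cell type marker lists is given by counts and sums.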

Additional observations from a re-analysis of the deposited data

How the results depend on the processing

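The ratios of the 9 members stayed within their counting intervals under 3 other scalings (median of ratios, TMM, upper quartile) and with 1 or 0.1 RPKM added. The scalings changed each ratio by a factor of at most 1.0014, too little to move any member out of its interval. The median log2 ratio of the members was -0.006, and -0.006 without Neurog1 and Neurod4, which was chosen after seeing the data. Neurog1 lies below the median member, Insm1, and Neurod4 above it. Leaving out both therefore could not move the median, and its staying the same says nothing about robustness. The counts over all genes depended on the filter and the added value, by construction. With a mean of at least 5 RPKM, 9356 genes were left, of which 676 were at least 25% higher and 789 at least 20% lower, 210 at least 1.5-fold higher and 192 lower, and 61 at least 2-fold higher and 52 lower. Without a filter, 1536 were at least 1.5-fold higher and 1286 lower, and 735 at least 2-fold higher and 629 lower. With 1 RPKM added, 496 were at least 1.5-fold higher and 395 lower, and 128 at least 2-fold higher and 96 lower. The main counts were 1939 at least 25% higher and 1793 at least 20% lower, 871 higher and 704 lower at 1.5-fold, and 325 higher and 245 lower at 2-fold. No paired analysis was possible because there is 1 library per group, and no library could be left out. Neurog1 and Neurod4 are limited by depth.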

Other observations

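Atoh1, a proneural bHLH gene known in the mouse from the hindbrain rhombic lip and the inner ear, was outside the filter and was chosen after its values were seen. It had 54 reads and 1.24 RPKM in TRPM2-KD, against 4 reads and 0.0730 RPKM in Control, a ratio of 17.0 (6.28 to 64.7). Insm2, the close relative of Insm1, was also below the filter, with 32 reads in TRPM2-KD and 64 in Control, a ratio of 0.630 (0.399 to 0.978).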
